A study of Mus musculus with 78 samples.

Results

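Complement and coagulation are protein cascades of the blood, and the liver makes most of their components. The genes described here are a named list of 41 complement and coagulation genes, read in liver RNA from 78 female mice with and without the cholesterol transporter Npc1. Each gene was represented by the probe set that carried its symbol alone and had the highest mean over all arrays, out of 19938 genes found in this way. Of the 41 genes, 38 had such a probe set. C3 and Cfd are not analysed here, and the probe set of Klkb1 carries a second symbol and was not used. The 38 genes were split by their usual source into 29 hepatocyte genes, 6 macrophage genes (C1qa, C1qb, C1qc, C3ar1, C5ar1 and F13a1) and 3 genes of other cells (F3, Thbd and Vwf). A filter on low values left 36 genes for testing. C5ar1 and F13a1 did not pass it and are given as levels only.

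The age series held homozygous Npc1-/- mice and their Npc1+/+ littermates, all BALB/cNctr-Npc1m1N/J females from crosses of heterozygotes, with 4 mice per genotype at each of 6 ages between 1 and 11 weeks, spaced 2 weeks apart. The labels call the Npc1-/- mice pre-symptomatic at 1 and 3 weeks and symptomatic later. A second set held BALB/cJ females killed at 12 weeks of age with 5 mice per group. Its groups were an Npc1 antisense oligo (a short nucleic acid given to lower Npc1 RNA) with the antioxidant N-acetyl-cysteine (NAC), a control oligo with NAC, the Npc1 oligo alone, the control oligo alone, overnight fasting and no treatment. Oligos and NAC were given for 4 weeks from 8 weeks of age. All mice of the second set have an intact Npc1 gene, and no oligo was given in the age series. Livers of the age series were frozen on dry ice, whereas those of the 12-week set were frozen or kept in RNAlater, without a label for which.

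Complement can start by 3 routes. In the classical route C1q binds its target and, through C4 and C2, cleaves C3. In the lectin route the mannose-binding lectins Mbl1 and Mbl2 do this with the proteases Masp1 and Masp2, and in the alternative route factor B (Cfb) does. All routes end in the terminal pathway, in which C5 (gene Hc), C6, C7, C8 and C9 build a pore in the membrane. In coagulation, factor VII with tissue factor (F3) or the contact factors XII and XI lead to thrombin (F2), which turns fibrinogen into fibrin. Hepatocytes make most of these proteins, and macrophages, including the resident Kupffer cells, are the main source of C1q.

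The windows upstream of 7 members are shown as examples and were not picked by size of change alone. Fga, Fgb and Fgg lie next to each other and encode the 3 chains of fibrinogen, but their probe sets showed changes of different size. C8a and C9 fell most among the hepatocyte genes, and C1qb and C1qc rose together. Each line gives the 250 bases before the annotated start of the gene, 5′ to 3′ on the strand of the gene, from RefSeq on GRCm38.p6. Capitals mark matches on either strand to 4 motifs: the half-site of the hepatocyte factor HNF1 (GTTAAT), a C/EBP site (TTGCNNAA), the core of the myeloid factor PU.1 (GAGGAA) and the interleukin-6 element known from fibrinogen genes (CTGGGAA).
Fga, chr3:83025903-83026152, plus strand: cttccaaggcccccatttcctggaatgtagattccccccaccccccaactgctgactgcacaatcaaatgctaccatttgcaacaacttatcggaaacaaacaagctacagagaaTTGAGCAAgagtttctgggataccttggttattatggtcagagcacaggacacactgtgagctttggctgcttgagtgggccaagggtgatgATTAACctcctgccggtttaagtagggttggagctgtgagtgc
Fgb, chr3:83049864-83050113, minus strand: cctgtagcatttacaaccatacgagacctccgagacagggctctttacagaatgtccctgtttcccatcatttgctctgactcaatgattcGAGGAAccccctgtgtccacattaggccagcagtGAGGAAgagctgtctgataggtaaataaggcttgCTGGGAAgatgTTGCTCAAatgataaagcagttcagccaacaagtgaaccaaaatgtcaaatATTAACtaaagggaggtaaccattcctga
Fgg, chr3:83007474-83007723, plus strand: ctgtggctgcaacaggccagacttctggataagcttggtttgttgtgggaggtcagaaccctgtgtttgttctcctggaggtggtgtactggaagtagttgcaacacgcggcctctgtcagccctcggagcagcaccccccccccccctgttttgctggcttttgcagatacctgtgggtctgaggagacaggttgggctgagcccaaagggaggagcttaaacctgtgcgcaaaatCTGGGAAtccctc
C8a, chr4:104876399-104876648, minus strand: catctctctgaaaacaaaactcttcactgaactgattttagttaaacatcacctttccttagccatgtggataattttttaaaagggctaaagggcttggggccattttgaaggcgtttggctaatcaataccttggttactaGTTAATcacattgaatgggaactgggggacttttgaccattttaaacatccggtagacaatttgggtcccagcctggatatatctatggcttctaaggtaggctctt
C9, chr15:6445096-6445345, plus strand: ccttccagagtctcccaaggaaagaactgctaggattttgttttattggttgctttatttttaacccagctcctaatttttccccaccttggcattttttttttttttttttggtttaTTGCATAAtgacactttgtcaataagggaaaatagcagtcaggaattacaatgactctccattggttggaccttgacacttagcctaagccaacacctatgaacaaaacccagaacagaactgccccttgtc
C1qb, chr4:136886201-136886450, minus strand: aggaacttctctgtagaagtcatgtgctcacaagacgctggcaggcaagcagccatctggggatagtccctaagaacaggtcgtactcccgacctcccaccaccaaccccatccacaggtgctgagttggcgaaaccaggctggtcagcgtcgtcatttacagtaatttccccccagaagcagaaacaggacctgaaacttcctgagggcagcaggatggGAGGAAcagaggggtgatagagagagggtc
C1qc, chr4:136892915-136893164, minus strand: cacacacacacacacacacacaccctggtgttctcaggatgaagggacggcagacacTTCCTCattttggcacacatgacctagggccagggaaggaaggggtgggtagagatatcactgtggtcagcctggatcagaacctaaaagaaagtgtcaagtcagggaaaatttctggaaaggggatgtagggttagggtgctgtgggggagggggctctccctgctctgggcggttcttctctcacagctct
Promoters were at hand for 27 of the 38 members. An HNF1 half-site was present in 7 of 21 hepatocyte members (C8a, C8b, F13b, Fga, Fgb, Hc and Proz), against 6.43% of all 32851 windows of this length. The C/EBP site was found in C9, F11, Fga and Fgb, against 9.56% of all windows, and the interleukin-6 element in Fgb, Fgg and Masp2, against 9.10%. The PU.1 core was found in 3 of 5 macrophage members (C1qb, C1qc and F13a1) and in F7 and Fgb, against 23.3% of all windows. Among the fibrinogen genes, Fgb held all 4 motifs, Fga the HNF1 and C/EBP letters and Fgg the interleukin-6 element, with no match overlapping another. A match describes the letters in these windows and is no evidence of binding.

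Expression is given as log2 values on the RMA scale, where a difference of 1 is a 2-fold change, and levels of different genes are not compared with one another. Array medians lay between 5.35 and 5.65, and Pearson r between arrays of one group between 0.990 and 0.997. Npc1 itself differed by -1.72 to -1.11 in Npc1-/- livers over the 6 ages, by -2.97 with the Npc1 oligo and by -2.08 with the Npc1 oligo plus NAC (highest adjusted p 1.96e-06, limma). NAC with the control oligo also lowered Npc1, with a difference of -1.03 (adjusted p = 6.05e-05). Some livers stood apart. Pancreatic genes stood high in mice 1 and 2 of the 3-week Npc1+/+ group (mean of the list 9.24 and 9.16, against 4.92 and 4.65 in the other 2 mice), and muscle genes in mouse 3 of the 1-week Npc1-/- group (9.57, against 5.89 to 6.01). Without those 2 Npc1+/+ mice 8 members passed the test at 3 weeks in place of 10, C2 and Mbl2 being lost, and without that Npc1-/- mouse 3 passed at 1 week in place of 4, Cfi being lost. Hepatocyte identity was clear in every group, with Albumin at group means of 13.3 to 13.6.

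The members changed with genotype in 2 directions that lay furthest apart at 11 weeks. At 1 week 4 of the 36 tested genes passed an adjusted p of 0.05, 1 higher and 3 lower in Npc1-/-, against 5.69% of all genes tested (2.91% higher, 2.78% lower). At 3 weeks 10 passed, 4 higher and 6 lower, against 15.7% of all genes (8.9% higher, 6.84% lower). The 5-week count was 7, 3 higher and 4 lower, against 12.6% (9.69% higher, 2.88% lower). A step followed at 7 weeks with 19 genes, 4 higher and 15 lower, against 25.3% (14.3% higher, 11.0% lower). In the 9-week mice 18 passed, 5 higher and 13 lower, against 33.2% (17.6% higher, 15.5% lower). By 11 weeks 30 passed, 7 higher and 23 lower, against 39.3% (18.8% higher, 20.5% lower). Members whose genotypes did not overlap numbered 6 at 1 week and 15 at 3 weeks, against 10.7% and 18.9% of all genes. They numbered 7 at 5 weeks and 19 at 7 weeks (15.2% and 23.4%), and 16 at 9 weeks and 31 at 11 weeks (32.2% and 34.3%). All 23 that fell at 11 weeks were hepatocyte genes, 23 of 29. The median difference of the hepatocyte genes at 11 weeks was -0.51, that of all genes -0.02. All 4 tested macrophage genes were higher in Npc1-/- livers at 7, 9 and 11 weeks.

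**Figure D1:**
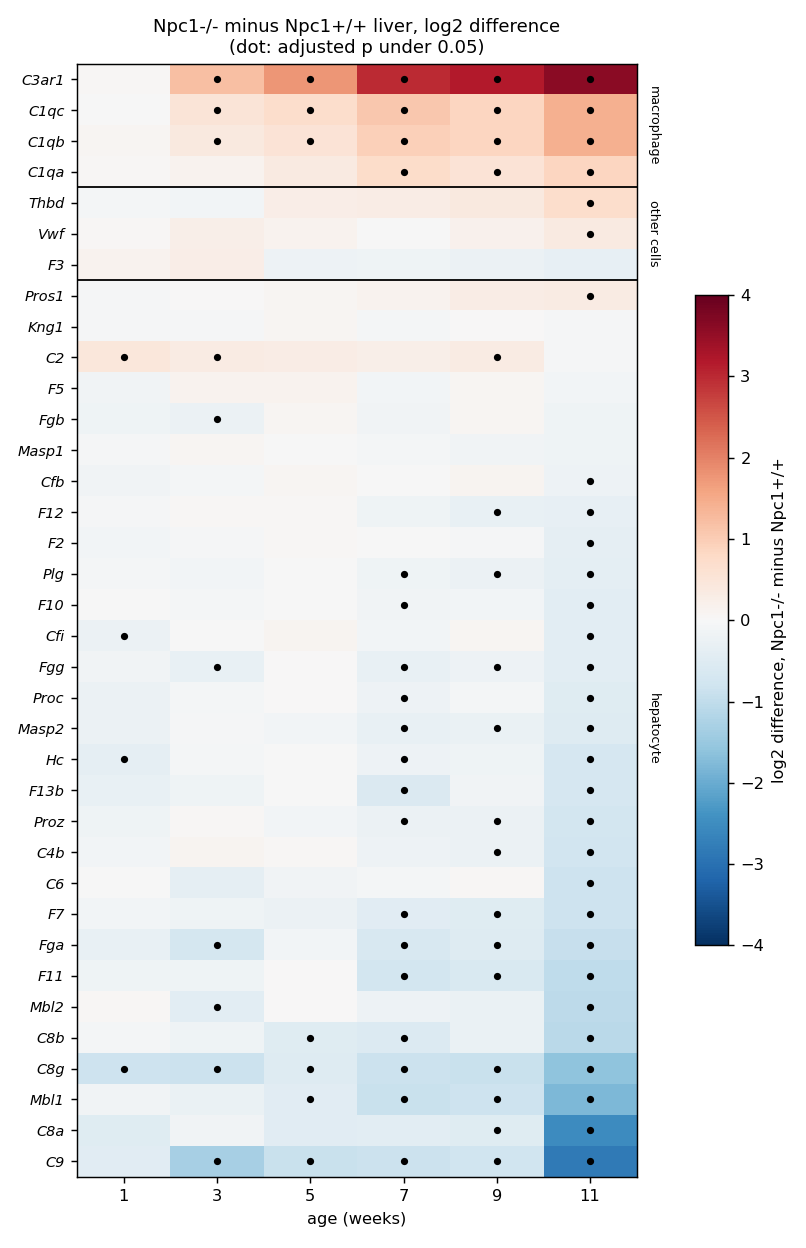
Log2 difference between Npc1-/- and Npc1+/+ livers for the 36 tested members (rows) at 6 ages in weeks (columns), with a dot where the adjusted p is under 0.05. The 4 macrophage genes are red from 7 weeks on, while most hepatocyte genes below the second line are pale from 1 to 5 weeks and most blue at 11 weeks, where 23 of 29 fell.

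The direction of small changes depends on the scaling of the arrays. At 7 weeks the split of 4 higher and 15 lower was 5 and 9 after quantile normalization and 4 and 21 with each array centred on its median. At 3 weeks, where the split was 4 and 6, it was 5 and 3 after quantile normalization and 2 and 7 after centring. At 11 weeks it was 7 and 21 after quantile normalization and 6 and 26 after centring, and centring moved the median of all genes by -0.105. Changes of the hepatocyte genes below 0.3 are therefore mostly given as counts. Those that are named below with such small values may depend on the scaling.

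The difference between genotypes itself varied with age for 29 of the 36 genes (moderated F test over the 6 ages), as it did for 27.7% of all genes. Averaged over ages, 31 members differed, 8 higher and 23 lower, against 52.6% of all genes tested (26.0% higher, 26.6% lower). For 25 of the 29 hepatocyte genes and all 4 tested macrophage genes the difference was largest in size at 11 weeks. How many of all genes peak at this age was not counted. The share of all genes past the test was also largest at 11 weeks (39.3%). In 20 of the 29 hepatocyte genes the 11-week Npc1-/- group had the lowest mean of all 18 groups of the study. The share of all genes with their lowest mean in that group was not counted, and the 18 groups mix sets of different stock and storage. The mean over the 29 genes was 10.20, 10.17, 10.08 and 9.97 in the 4 Npc1-/- mice at 11 weeks, against 10.81, 10.90, 10.79 and 10.83 in the Npc1+/+ mice. At the other ages the Npc1-/- group means of this summary lay between 10.48 and 10.64.

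Markers of several cell types moved with these changes in the same livers at 11 weeks. Hepatocyte markers fell in 6 of 9 genes with a median difference of -0.29, and the mean of that list was 12.3 to 12.4 in Npc1-/- mice, against 12.5 to 12.7 in Npc1+/+ mice. Macrophage markers rose in 10 of 10 (median 2.57; mean of the list 9.84 to 10.04 in Npc1-/- mice, against 7.38 to 7.51 in Npc1+/+ mice), as did markers of lipid-laden macrophages in 6 of 6 (median 3.54; list mean 10.05 to 10.33, against 6.22 to 6.56). Markers of resident Kupffer cells fell in 5 of 6 (median -1.19; list mean 5.99 to 6.56 in Npc1-/- mice, against 7.63 to 7.67 in Npc1+/+ mice). In whole liver, fewer cells of a type and less RNA per cell cannot be told apart, and the part of these markers in the changes of the members was not tested.

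C3ar1, the receptor for the anaphylatoxin C3a on myeloid cells, showed the steepest course. At 1 week it read 5.58, 5.69, 5.72 and 5.74 in Npc1-/- mice, against 5.60, 5.44, 5.94 and 5.60 in Npc1+/+ mice, and the groups overlapped. At 3 weeks it read 6.25, 6.30, 6.79 and 6.40 in Npc1-/- mice, against 5.44, 5.11, 5.34 and 5.06 in Npc1+/+ mice. The groups no longer overlapped at this age, which the labels count as pre-symptomatic, and the difference was 1.20 ± 0.15 (SE; adjusted p = 4.68e-08). Npc1-/- means went on to 7.07 at 5 weeks, then 8.18, 8.60 and 8.99 in the 7-, 9- and 11-week groups, while Npc1+/+ means stayed between 5.20 and 5.42 from 3 to 11 weeks. At 11 weeks the 4 Npc1-/- mice read 8.85, 8.68, 9.24 and 9.19, against 5.50, 5.46, 4.87 and 5.70 in the Npc1+/+ mice. The difference of 3.60 ± 0.15 is a 12.2-fold higher signal (adjusted p = 5.07e-24). The Npc1+/+ values lie near the filter value of 5.54, where a fold is least certain.

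The 3 chains of C1q, the recognition molecule of the classical route, lie in one cluster of genes and were also higher in Npc1-/- livers, C1qb and C1qc past the test from 3 weeks on and C1qa from 7 weeks on. C1qc read 8.30, 8.13, 8.58 and 8.31 in Npc1-/- mice at 3 weeks, against 7.84, 7.98, 7.80 and 7.64 in Npc1+/+ mice, with no overlap (difference 0.52 ± 0.12, adjusted p = 0.0015). At 11 weeks it read 9.19, 8.97, 9.13 and 9.73 in Npc1-/- mice, against 7.80, 7.94, 7.75 and 7.79 in Npc1+/+ mice (1.44 ± 0.12, adjusted p = 6.44e-14). C1qb read 8.41, 8.30, 8.66 and 8.33 in Npc1-/- mice at 3 weeks, against 8.13, 8.12, 8.06 and 7.87 in Npc1+/+ mice (0.38 ± 0.12, adjusted p = 0.0234). At 11 weeks C1qb read 9.52, 9.38, 9.12 and 9.99 in Npc1-/- mice, against 7.95, 8.27, 8.27 and 7.82 in Npc1+/+ mice (1.42 ± 0.12, adjusted p = 1.63e-13). Neither C1qb nor C1qc overlapped between the genotypes at either age. The 3-week call of C1qb was lost without mouse 3 of the Npc1-/- group or mouse 4 of the Npc1+/+ group, where the lower value was 0.30 and the highest adjusted p 0.125. C1qa differed by 0.74 ± 0.13 at 7 weeks and 0.85 ± 0.13 at 11 weeks (adjusted p = 5.91e-07), and its difference at 5 weeks was 0.36.

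After the first week C1qc levels were lower in Npc1+/+ livers, and less so in Npc1-/- livers. In Npc1+/+ livers C1qc averaged 8.61 ± 0.21 at 1 week and 7.81 ± 0.14 at 3 weeks (SD, n = 4 each). In Npc1-/- livers it averaged 8.58 ± 0.15 at 1 week and 8.33 ± 0.19 at 3 weeks. From 3 to 11 weeks the Npc1+/+ mean of C1qc changed by 0.01 and the Npc1-/- mean by 0.93 ± 0.12 (adjusted p = 2.21e-08). Mouse 4 of the 11-week Npc1-/- group had the highest C1qb (9.99) and C1qc (9.73) of all 78 livers and the highest C1qa of the age series (9.88), and without it the 11-week differences were 1.26 for C1qb, 1.28 for C1qc and 0.64 for C1qa, all past the test. C3ar1 differed by 3.54 without that mouse.

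F13a1, the catalytic subunit of the fibrin-crosslinking factor XIII, and C5ar1, the receptor for C5a, exceeded the filter value on fewer than 4 arrays. F13a1 had group means of 5.02 to 5.32 in Npc1-/- mice from 3 to 11 weeks, against 4.58 to 4.71 in Npc1+/+ mice. At 3 weeks its values were 5.10, 5.01, 4.93 and 5.05 in Npc1-/- mice, against 4.67, 4.59, 4.53 and 4.55 in Npc1+/+ mice, so the groups were apart. At 1 week both genotypes were higher and overlapped, with means of 5.14 in Npc1-/- mice and 5.26 in Npc1+/+ mice. C5ar1 had group means of 4.50 to 4.71 in Npc1-/- livers over the 6 ages, against 4.51 to 5.01 in Npc1+/+ livers. At such levels neither a change nor its absence can be read from these arrays.

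**Figure D2:**
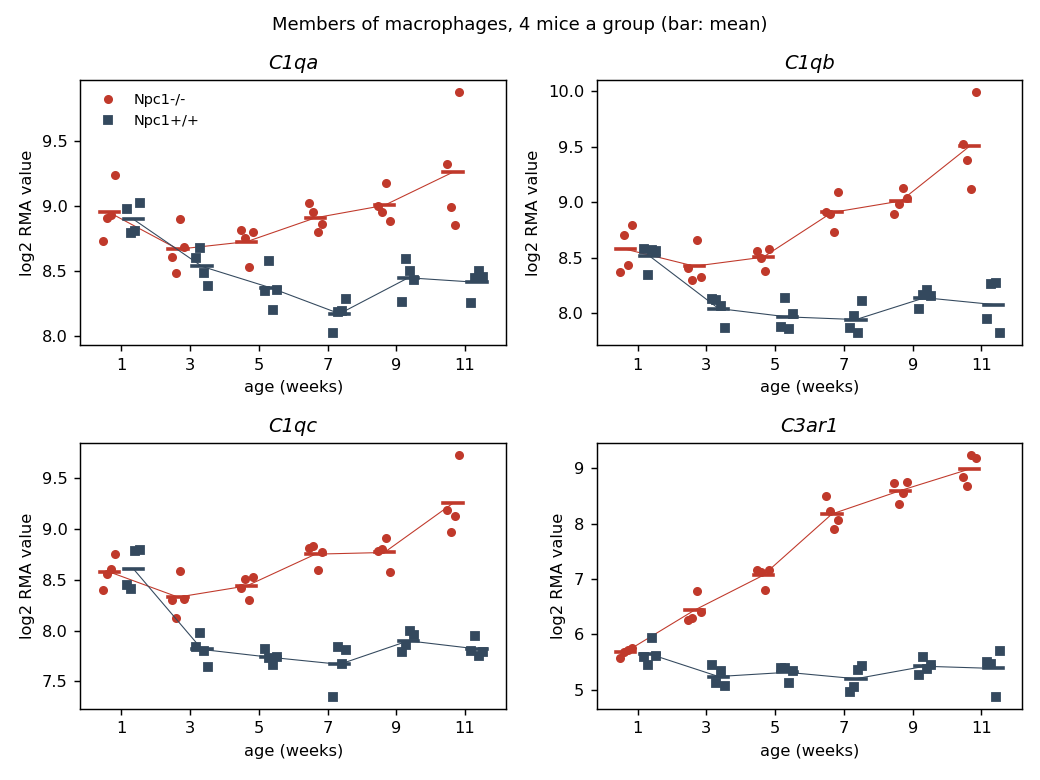
Log2 RMA values of C1qa, C1qb, C1qc and C3ar1 in each of 4 Npc1-/- (circles) and 4 Npc1+/+ (squares) livers per age in weeks, with bars at the group means. The genotypes overlap at 1 week, C3ar1 is apart from 3 weeks on and climbs to a mean of 8.99 at 11 weeks, and from 3 to 11 weeks C1qb and C1qc climb by 1.08 and 0.93 in Npc1-/- livers while the Npc1+/+ means change by 0.04 and 0.01.

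The terminal pathway held the deepest falls of the hepatocyte genes. Its 6 genes on the named list were all lower in Npc1-/- livers at 11 weeks. None overlapped between genotypes (34.3% of all genes did not overlap in either direction). C7, a terminal gene outside the named list, was higher at 9 weeks, with a mean of 5.62 in Npc1-/- mice, against 4.70 in Npc1+/+ mice. That difference was 0.92 ± 0.14 (adjusted p = 9.34e-07, limma), at values close to the filter value. Averaged over ages C7 differed by 0.42 ± 0.06. Its 11-week difference is not given here, so C7 is not set against the 6 genes at that age. C9, which polymerises into the pore, read 7.43, 7.46, 6.78 and 6.28 in Npc1-/- mice at 11 weeks, against 9.54, 10.05, 9.88 and 9.72 in Npc1+/+ mice. That is a difference of -2.82 ± 0.23, a 7.04-fold lower signal (adjusted p = 4.35e-14). C8a, the alpha chain of C8, read 8.47, 8.93, 8.42 and 7.62 in Npc1-/- mice, against 10.73, 11.09, 10.76 and 10.95 in Npc1+/+ mice (-2.52 ± 0.17, adjusted p = 2.07e-16). Mouse 4 was the lowest of the group for both genes, and without it the differences were -2.58 for C9 and -2.27 for C8a.

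These 2 genes took different courses before 11 weeks. C9 was already lower at 3 weeks, at 7.23, 7.48, 7.67 and 7.76 in Npc1-/- mice, against 8.94, 8.84, 8.91 and 8.72 in Npc1+/+ mice (-1.32 ± 0.23, adjusted p = 3.88e-05). It then differed by -0.88 at 5 weeks, -0.86 at 7 weeks and -0.78 at 9 weeks. The 5-week call rests on mouse 3 of the Npc1-/- group (7.77, against 8.83 to 9.18 in the other 3 mice), and without it the difference was -0.58 (adjusted p = 0.0803). C8a differed by -0.49 to -0.15 from 1 to 7 weeks with no age past the test, and by -0.49 at 9 weeks (adjusted p = 0.0252). That 9-week call was lost without any 1 of mice 2, 3 and 4 of the Npc1-/- group or mice 2 and 4 of the Npc1+/+ group, with values of -0.60 to -0.38 when 1 mouse was left out. The drop of C8a from 3 to 11 weeks was -2.04 ± 0.17 in Npc1-/- livers (adjusted p = 4.28e-13).

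C8g, the small gamma chain of C8 and a lipocalin, was the only hepatocyte gene lower at all 6 ages by the test. It read 9.98, 9.99, 9.48 and 10.18 in Npc1-/- mice at 1 week, against 10.59, 10.72, 10.87 and 10.75 in Npc1+/+ mice (-0.82 ± 0.11, adjusted p = 4.84e-07). At 11 weeks it read 10.11, 9.90, 9.56 and 9.56 in Npc1-/- mice, against 11.39, 11.45, 11.34 and 11.41 in Npc1+/+ mice (-1.62 ± 0.11, adjusted p = 5.31e-17). The genotypes did not overlap at any age, and the differences between these ages were -0.52 to -0.89. C8b, the beta chain, fell by 1.06 ± 0.14 at 11 weeks (adjusted p = 4.05e-08), C6 by 0.82 ± 0.17 and Hc (C5) by 0.68 ± 0.07. Hc was also lower at 1 week, by 0.36 ± 0.07 (adjusted p = 0.000566). C6 was dim, at 5.35 to 5.67 in Npc1-/- mice, against 6.18 to 6.53 in Npc1+/+ mice, close to the filter value.

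**Figure D3:**
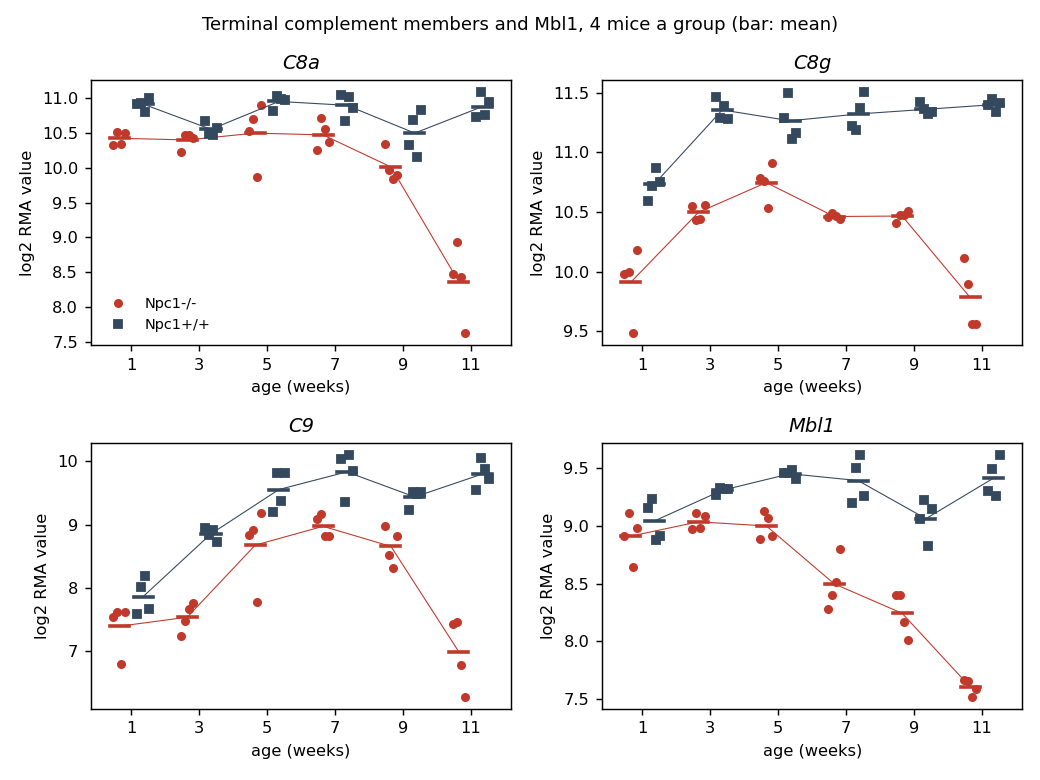
Log2 RMA values of C8a, C8g, C9 and Mbl1 in each of 4 Npc1-/- (circles) and 4 Npc1+/+ (squares) livers per age in weeks, with bars at the group means. C8g lies apart at every age, C9 from 3 weeks on, Mbl1 drifts down from 5 weeks, and C8a drops to 7.62 to 8.93 in Npc1-/- mice at 11 weeks.

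Among the lectin genes Mbl1, a serum lectin that binds mannose on microbes, had lower Npc1-/- means at each age from 5 weeks on (9.00, 8.50, 8.24 and 7.60). It read 7.66, 7.65, 7.52 and 7.58 in Npc1-/- mice at 11 weeks, against 9.30, 9.49, 9.26 and 9.61 in Npc1+/+ mice (-1.81 ± 0.11, a 3.51-fold lower signal, adjusted p = 1.72e-18). Its differences were -0.45 at 5 weeks, -0.90 at 7 weeks and -0.82 at 9 weeks, all past the test with no overlap. Mbl2 differed by -1.05 ± 0.13 at 11 weeks (adjusted p = 1.45e-08). Its differences of 0.02 at 5 weeks, -0.21 at 7 weeks and -0.26 at 9 weeks did not pass. At 3 weeks Mbl2 also passed the test as lower, a call lost without mice 1 and 2 of the Npc1+/+ group. Masp2 was lower at 11 weeks by 0.51 ± 0.08, while Masp1 did not pass the test at any age (-0.17 ± 0.09 at 11 weeks).

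The early components behaved unlike one another. C2, the protease of the classical and lectin convertase, was the only hepatocyte gene to pass the test upward at 1 week. It read 8.85, 8.89, 8.74 and 9.12 in Npc1-/- mice, against 8.48, 8.63, 8.38 and 8.35 in Npc1+/+ mice (0.44 ± 0.10, adjusted p = 0.00528). Mice 3 and 4 of that Npc1+/+ group carry sample numbers apart from the rest, and without both the difference was 0.34 (adjusted p = 0.204). C2 was also higher at 3 weeks (0.32 ± 0.10, adjusted p = 0.0251), at 9 weeks (0.33 ± 0.10, adjusted p = 0.0121) and averaged over ages (0.26 ± 0.04, adjusted p = 1.01e-06), but not at 11 weeks (-0.06 ± 0.10). The 3-week call was lost without mouse 3 or 4 of either genotype (lowest value 0.26, highest adjusted p 0.114) with centred arrays (0.28), in a fit of the 3-week groups alone (adjusted p = 0.0534) and without both mice 1 and 2 of the Npc1+/+ group (adjusted p = 0.0675), and the 9-week call without mouse 4 of the Npc1+/+ group (0.25, adjusted p = 0.0730). C4b fell by 0.77 ± 0.09 at 11 weeks (adjusted p = 2.16e-09), but C4b and its near copy C4a share sequence, so the probe set may read both. Cfi, which inactivates C3b and C4b, was lower by 0.42 ± 0.07 at 11 weeks. Cfb differed by -0.21 ± 0.06, and by -0.15 (adjusted p = 0.0784) without mouse 4 of the Npc1-/- group.

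Several coagulation genes were lower as well. F11, a protease that activates factor IX, read 8.73, 8.85, 8.77 and 8.57 in Npc1-/- mice at 11 weeks, against 9.70, 9.77, 9.72 and 9.84 in Npc1+/+ mice (-1.03 ± 0.13, adjusted p = 7.55e-09). It was lower from 7 weeks on (-0.72 at 7 weeks and -0.60 at 9 weeks) and overlapped at 5 weeks. F7, the partner of tissue factor, fell by 0.47 at 7 weeks, 0.48 at 9 weeks and 0.82 ± 0.10 at 11 weeks (adjusted p = 3.04e-09). Kng1, the contact cofactor kininogen, and F5, the cofactor of factor Xa, did not pass the test at any age (-0.03 ± 0.06 for Kng1 and -0.10 ± 0.08 for F5 at 11 weeks). Kng1 averaged 12.8 over all arrays, whose values reached 14.6, and whether its signal is compressed at that level was not tested. Prothrombin (F2) and F10 fell at 11 weeks by 0.36 ± 0.06 and 0.42 ± 0.06, each with no overlap between genotypes.

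The 3 fibrinogen chains, which assemble in equal numbers, showed unequal changes on the probe sets used. Differences between the chains were not tested. Fga, the alpha chain, read 9.34, 9.31, 9.26 and 9.59 in Npc1-/- mice at 11 weeks, against 10.06, 10.18, 10.41 and 10.51 in Npc1+/+ mice (-0.92 ± 0.14, adjusted p = 9.18e-07). Fgg, the gamma chain, read 12.41, 12.42, 12.42 and 12.40, against 12.80, 12.83, 12.84 and 12.93 (-0.44 ± 0.06, adjusted p = 1.48e-07). Fgb, the beta chain, read 12.47, 12.42, 12.56 and 12.52, against 12.64, 12.63, 12.61 and 12.72, which did not overlap but missed the threshold (-0.16 ± 0.07, adjusted p = 0.0576). All 3 were lower at 3 weeks, by 0.69 ± 0.14 for Fga, 0.29 ± 0.06 for Fgg and 0.23 ± 0.07 for Fgb. A second Fga probe set, which was not used, differed by -1.24 at 11 weeks and -0.98 at 3 weeks. Probe sets of a single gene thus also gave unequal changes. After quantile normalization the 3-week values of Fgg (-0.12, adjusted p = 0.182) and Fgb (-0.05, adjusted p = 0.618) missed the threshold, and that of Fgb did so without mouse 4 of the Npc1+/+ group (highest adjusted p 0.0618). Fgb and Fgg read near the top of the array's range of 1.79 to 14.6, and whether their signal is compressed there was not tested.

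F13b, the carrier subunit of factor XIII, fell by 0.68 ± 0.09 at 11 weeks, and plasminogen (Plg), which dissolves fibrin, by 0.40 ± 0.06. Among the anticoagulants, protein C (Proc) fell by 0.50 ± 0.08 and protein Z (Proz) by 0.72 ± 0.09. Protein S (Pros1), the cofactor of protein C, went the other way, at 8.88, 9.10, 9.24 and 9.49 in Npc1-/- mice, against 8.86, 8.83, 8.80 and 8.84 in Npc1+/+ mice (0.34 ± 0.12, adjusted p = 0.0249). Its call was lost without mouse 3 or mouse 4 of the Npc1-/- group (values of 0.24 to 0.44 with 1 mouse left out, highest adjusted p 0.151) and with arrays centred on the median (0.25, adjusted p = 0.105).

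The genes of endothelium and other cells did not pass the test before 11 weeks. Thbd, thrombomodulin, read 6.29, 6.33, 6.36 and 7.18 in Npc1-/- mice at 11 weeks, against 5.92, 5.62, 5.95 and 5.92 in Npc1+/+ mice (0.69 ± 0.16, adjusted p = 0.000471). The values of 7.18 in Npc1-/- mouse 4 and 5.62 in Npc1+/+ mouse 2 stood apart from their groups, and both widen the difference. Vwf, the platelet-binding von Willebrand factor, read 6.75, 6.81, 6.72 and 6.81 in Npc1-/- mice, against 6.45, 6.40, 6.44 and 6.39 in Npc1+/+ mice (0.35 ± 0.09, adjusted p = 0.00174). Markers of sinusoidal endothelium went mostly the other way at that age, 6 of 8 lower and 1 higher with a median of -0.50. F3 (tissue factor) differed by -0.34 ± 0.21 and did not pass.

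Changes with age were also read within each genotype. In Npc1+/+ livers 16 members differed at 3 weeks from 1 week, 5 higher and 11 lower, against 36.9% of all genes (15.4% higher, 21.5% lower), and the split was 12 and 5 with arrays centred on the median and 4 and 16 after quantile normalization. C9 was 0.99 ± 0.23 higher at 3 weeks than at 1 week in Npc1+/+ mice and a further 0.95 ± 0.23 higher at 11 weeks than at 3 weeks. F11 was 0.63 ± 0.13 lower at 3 weeks than at 1 week. Between 11 and 3 weeks only 5 members differed in Npc1+/+ livers, 2 higher and 3 lower (10.2% of all genes, 6.44% higher and 3.74% lower), whereas 28 differed in Npc1-/- livers, 6 higher and 22 lower (28.6% of all genes, 16.4% higher and 12.2% lower). The Npc1+/+ count was 2 or 3 without any 1 of mice 2, 3 and 4 at 3 weeks or mice 1, 2 and 4 at 11 weeks. The Npc1+/+ counts lie near the shares of all genes. The Npc1-/- and Npc1+/+ contrasts between 11 and 3 weeks share no mice, and the difference between their counts was not tested. C9 averaged 6.99 ± 0.57 at 11 weeks and 7.53 ± 0.23 at 3 weeks in Npc1-/- livers, while in Npc1+/+ livers it averaged 9.80 ± 0.22 at 11 weeks and 8.85 ± 0.10 at 3 weeks (SD, n = 4 each).

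Knockdown of Npc1 in adult mice raised the macrophage genes and left most hepatocyte genes near their control level. With the Npc1 oligo alone 12 of 36 members differed from the control oligo, 5 higher and 7 lower, against 22.6% of all genes, 14.7% higher and 7.88% lower (5 and 4 both after quantile normalization and with centred arrays). All 4 tested macrophage genes were higher, and 8 of 29 hepatocyte genes differed, 7 of them lower, with a median of -0.05. C3ar1 read 7.32, 6.76, 6.45, 7.01 and 7.14 with the Npc1 oligo, against 5.73, 5.84, 6.45, 5.76 and 5.48 with the control oligo (1.08 ± 0.23, adjusted p = 0.000832). The groups did not overlap, but the lowest knockdown mouse and the highest control mouse both read 6.45. C1qa read 9.77, 9.70, 9.76, 9.66 and 9.83, against 9.06, 9.02, 8.95, 9.06 and 8.98 (0.73 ± 0.12, adjusted p = 4e-05). C1qb and C1qc were higher by 0.67 ± 0.13 and 0.73 ± 0.14. Macrophage markers rose in 8 of 10 (median 0.92; list mean 8.79 to 9.38, against 8.07 to 8.34), and 2 of 6 Kupffer cell markers rose with none lower.

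Of the hepatocyte genes, Mbl1 and C8g fell in the knockdown as well. Mbl1 read 8.16, 8.75, 8.46, 8.16 and 8.27 with the Npc1 oligo, against 9.16, 8.74, 9.09, 9.04 and 8.95 with the control oligo (-0.64 ± 0.09, adjusted p = 1.01e-05), overlapping in 1 mouse of each group. C8g read 10.63, 10.76, 10.77, 10.66 and 10.55, against 11.17, 11.08, 11.06, 11.20 and 11.13, with no overlap (-0.45 ± 0.07, adjusted p = 1.91e-05). Masp1, which did not pass the test by genotype at any age, was lower by 0.34 ± 0.06 (adjusted p = 0.000157), and F7 by 0.29 ± 0.08. C9 and C8a, the genes that fell most in Npc1-/- livers at 11 weeks, differed by 0.22 ± 0.14 (adjusted p = 0.264) and 0.15 ± 0.12 (adjusted p = 0.365). C9 read 9.73, 10.13, 9.54, 9.67 and 9.77 with the Npc1 oligo, against 9.49, 9.33, 9.61, 9.57 and 9.72 with the control oligo.

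With NAC in both groups, 21 members differed between the Npc1 oligo and the control oligo, 6 higher and 15 lower, against 25.7% of all genes, 11.0% higher and 14.7% lower (8 and 10 after quantile normalization). The hepatocyte median was -0.21, and 14 of 29 hepatocyte genes were lower. Mbl1 differed by -0.65 ± 0.09 and C8g by -0.34 ± 0.07, about as much as without NAC. F11 read 9.76, 9.62, 9.57, 9.97 and 9.79 with the Npc1 oligo and NAC, against 10.45, 10.35, 10.39, 10.38 and 10.22 with the control oligo and NAC (-0.62 ± 0.09, adjusted p = 6.29e-06). C8a read 10.77, 10.82, 11.02, 11.13 and 11.00, against 11.41, 11.73, 11.52, 11.58 and 11.36 (-0.57 ± 0.12, adjusted p = 0.000378). Neither pair of groups overlapped. All 9 acute phase markers were below 0 in this contrast (median -0.77, 4 called lower).

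Mouse 3 of the Npc1 oligo plus NAC group stood apart in the macrophage genes, although its Npc1 value of 7.26 lay among those of its group (6.68 to 7.51). Its C3ar1 was 5.90, against 7.47, 7.58, 8.00 and 7.49 in the other 4, and 5.92, 5.80, 5.78, 5.97 and 6.01 with the control oligo and NAC. Its macrophage marker mean was 8.33, against 9.12 to 9.49 in the others. With all mice C3ar1 differed by 1.39 ± 0.23 (adjusted p = 2.92e-05), C1qa by 0.49, C1qb by 0.42 and C1qc by 0.46. Without that mouse the differences were 1.74, 0.60, 0.54 and 0.61. The call of C1qb was lost without mouse 1 or 4 of the same group, and that of C1qc without mouse 1 or 5, with lowest values of 0.35 and 0.39 and highest adjusted p of 0.0678 and 0.0572.

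The knockdown effect with NAC differed from that without it for 4 members, 1 higher and 3 lower, against 4.83% of all genes, and for 2 members without mouse 5 of the Npc1 oligo group. Thbd had an effect of -0.76 ± 0.20 (adjusted p = 0.00524) with NAC and of 0.42 ± 0.20 without it, which did not pass (adjusted p = 0.136), a difference of -1.18 ± 0.29 (adjusted p = 0.0155). It read 5.74, 5.85, 5.52, 6.19 and 6.11 with the Npc1 oligo and NAC, against 6.70, 6.70, 5.78, 7.00 and 7.03 with the control oligo and NAC. C8a had an interaction of -0.72 ± 0.16 (adjusted p = 0.00944). F3 had one of 0.76 ± 0.20 (adjusted p = 0.0238; highest 0.0529, without mouse 5 of the Npc1 oligo group). F11 had one of -0.43 ± 0.13 (adjusted p = 0.048; values of -0.49 to -0.39 and adjusted p up to 0.0997 with 1 mouse left out, the call being lost without any 1 of 14 of the 20 mice).

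NAC given with the control oligo raised 5 members and lowered none, against 8.5% of all genes (6.09% higher, 2.41% lower). C8a was the most changed, at 11.41, 11.73, 11.52, 11.58 and 11.36 with NAC, against 11.01, 10.35, 10.65, 10.94 and 10.90 without it (0.75 ± 0.12, adjusted p = 0.000136), and Cfb, a factor known to rise in the acute phase, differed by 0.26 ± 0.05 (adjusted p = 0.00299). Acute phase markers rose in 9 of 9 in the same livers (median 2.66), and their part in these values was not tested. The count was 3 without mouse 2 of the control oligo group or mouse 5 of the control oligo plus NAC group, and 2 without mouse 2 of the control oligo plus NAC group. The 3 fibrinogen genes, also known as acute phase genes, did not pass the test with NAC under the control oligo. Their direction was upward, with Fga higher by 0.29. Fgb and Fgg had their highest mean of the 18 groups with the control oligo and NAC. With the Npc1 oligo, NAC changed 3 members, 1 higher and 2 lower, against 7.15% of all genes, and 1 member without mouse 4 or 5 of the Npc1 oligo group or mouse 2 or 5 of the Npc1 oligo plus NAC group. For 11 of the 29 hepatocyte genes the control oligo plus NAC group had the highest mean of the 18 groups. These groups mix sets of different stock and storage, and the share of all genes was not counted.

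The control oligo alone differed from no treatment in 10 members, 6 higher and 4 lower, against 26.3% of all genes, 5.05% higher and 21.3% lower (9 and 3 after quantile normalization). C8b was higher by 0.53 ± 0.11 (adjusted p = 0.000791), C9 by 0.48 ± 0.14 and Pros1 by 0.31 ± 0.09, while Masp2 and Proz were lower by 0.25 ± 0.05 and 0.24 ± 0.06. C1qa was higher by 0.40 ± 0.12, and by 0.30 (adjusted p = 0.0559) without mouse 1 of the untreated group. Macrophage markers rose in 6 of 10 (median 0.51; list mean 8.07 to 8.34 with the control oligo, against 7.55 to 8.00 untreated) and Kupffer cell markers in 4 of 6. Overnight fasting changed 1 member, C8b, against 0.529% of all genes. C8b read 9.81, 9.61, 9.81, 9.50 and 9.34 in fasted mice, against 9.92, 10.20, 10.08, 10.43 and 10.18 in untreated mice, with no overlap (-0.55 ± 0.11, adjusted p = 0.0117). The call was lost without mouse 4 of the untreated group or mouse 4 or 5 of the fasted group, with values of -0.61 to -0.48 and adjusted p up to 0.0677.

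**Figure D4:**
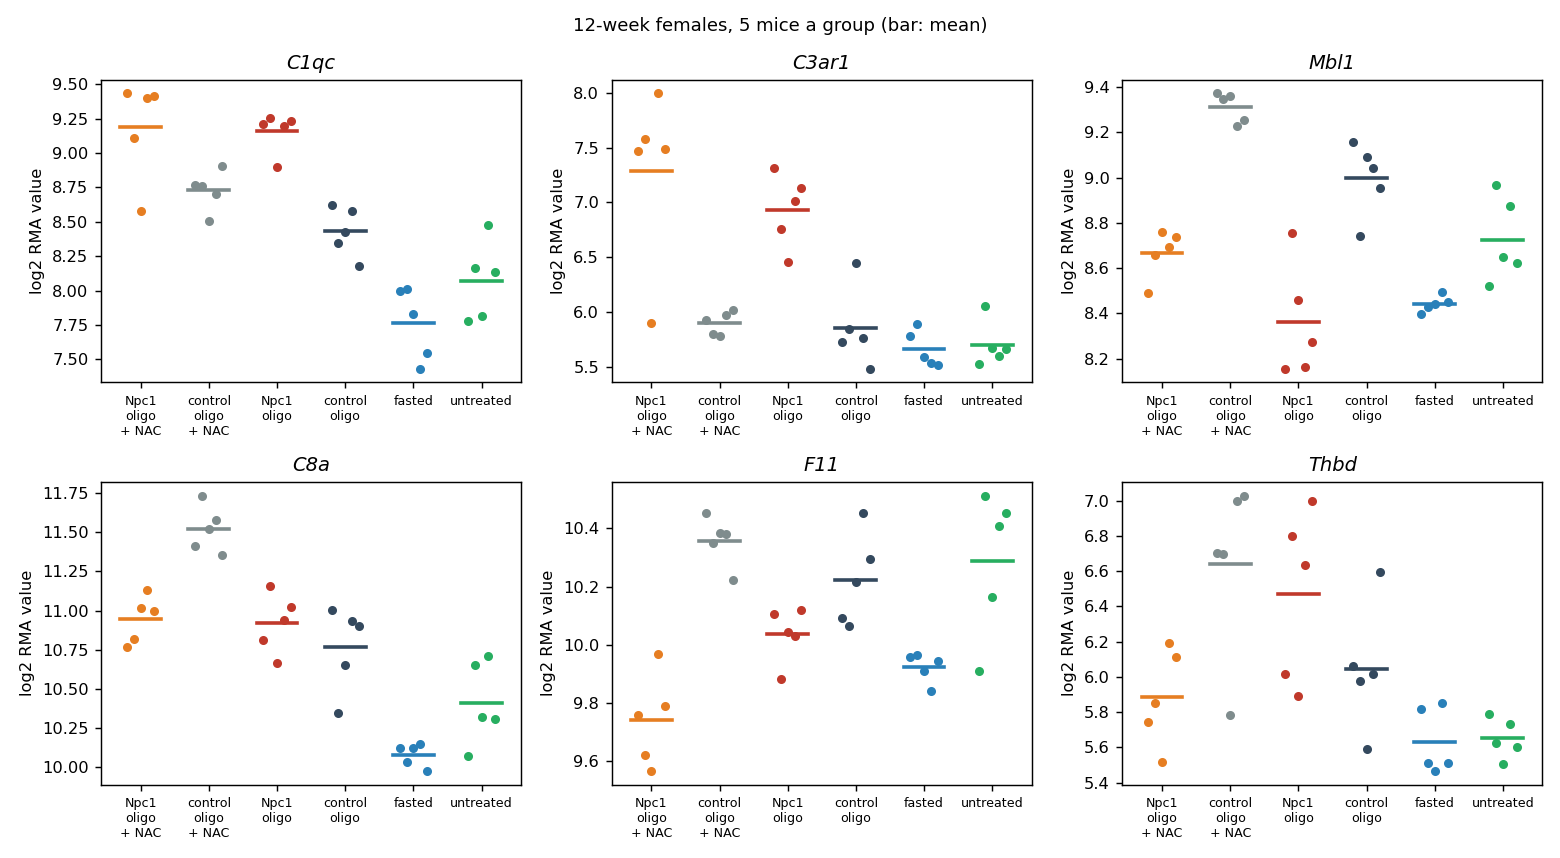
Log2 RMA values of C1qc, C3ar1, Mbl1, C8a, F11 and Thbd in each of 5 livers per group of 12-week mice, with bars at the group means. C1qc and C3ar1 are high in both Npc1 oligo groups apart from 1 mouse with NAC at a C3ar1 of 5.90, Mbl1 is low in both, and C8a is highest with the control oligo and NAC.

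The effect of Npc1 loss at 11 weeks and that of the oligo differed for 27 of 36 members when tested against each other over all 78 arrays, 4 higher and 23 lower, against 27.7% of all genes (11.7% higher, 16.0% lower). All 23 that were lower were hepatocyte genes. The difference between the effects was -3.04 ± 0.28 for C9 (adjusted p = 5.13e-14), -2.67 ± 0.22 for C8a (adjusted p = 2.52e-16), -1.18 ± 0.14 for Mbl1 and -1.16 ± 0.13 for C8g. For C3ar1 it was 2.52 ± 0.28 (adjusted p = 2.85e-11), for C1qb 0.75 ± 0.18 and for C1qc 0.71 ± 0.19. C1qa had effects of 0.85 in Npc1-/- livers and 0.73 with the oligo, with a difference of 0.12 ± 0.18 that did not pass. Thbd did not differ past the threshold either (0.27 ± 0.26). The 2 models differ at least in the cells that lose Npc1, in the length of the loss and in the measured fall of Npc1 RNA. Age, stock, the storage of the livers and the oligo given to the controls differ as well, and these cannot be told apart.

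**Figure D5:**
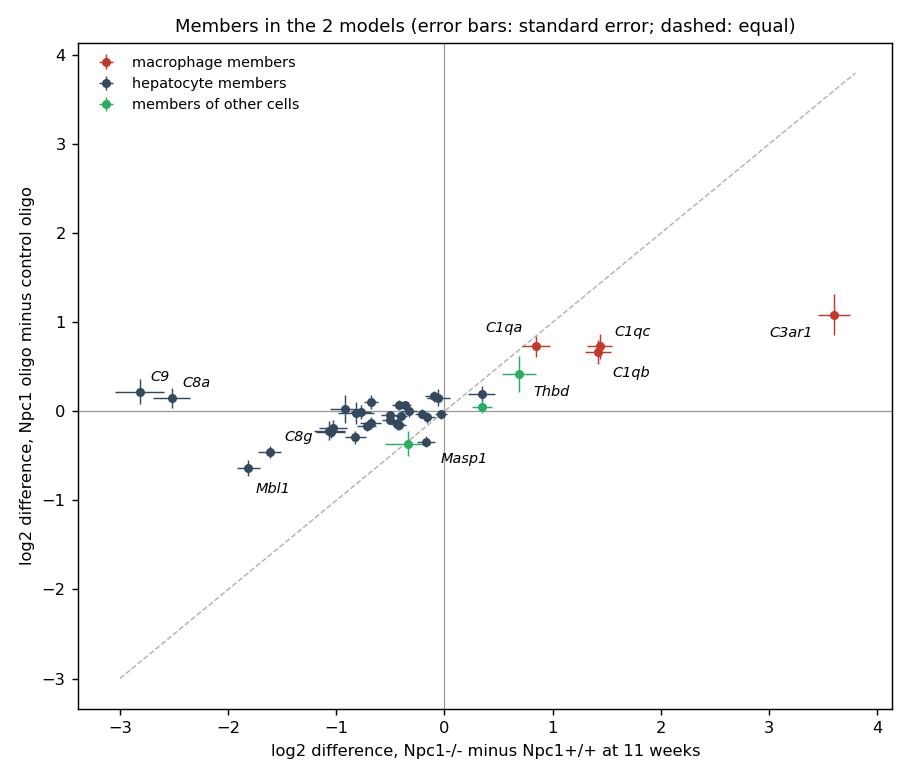
Log2 difference of each of the 36 tested members between Npc1 oligo and control oligo mice (vertical axis) plotted on that between Npc1-/- and Npc1+/+ mice at 11 weeks (horizontal axis), with standard errors and a dashed line of equal effects. C1qa lies near the line, C3ar1 and the other C1q genes below it on the right, and C9 and C8a at the far left with oligo effects of 0.22 and 0.15.

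Other genes of the 2 cascades were counted from lists that hold no member. At 11 weeks 15 of 23 tested complement genes differed, 5 higher and 10 lower in Npc1-/- mice, against 39.3% of all genes (18.8% higher, 20.5% lower). The integrin chains of the iC3b receptors on myeloid cells led these, Itgax with a mean of 9.00 in Npc1-/- mice, against 4.79 in Npc1+/+ mice, and Itgb2 with 9.33, against 6.21. Cd59b, an inhibitor of the membrane pore, was lower by 0.99 ± 0.15. Of the tested coagulation genes, 13 of 15 differed, 3 higher and 10 lower, against the same shares of all genes. Plaur and Plau, the receptor for urokinase and urokinase itself, were higher by 2.33 ± 0.12 and 1.13 ± 0.11, whereas Ggcx, the carboxylase that activates the vitamin K-dependent factors, was lower by 1.08 ± 0.11. With the Npc1 oligo 4 of 21 complement genes differed (3 higher, 1 lower) and 6 of 15 coagulation genes (3 each way), against 22.6% of all genes, so that the complement count is no higher than the background. Among them were Itgax, higher by 1.67 ± 0.29 over a control oligo mean of 5.03 that lies below the filter value, and Ggcx, lower by 0.25 ± 0.05.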

How the data were processed

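Liver RNA had been labelled with biotin and hybridised to Affymetrix mouse arrays, 1 array per mouse. The deposited table holds log2 values, and RMA and Partek 6.5 are named per the submitters' processing notes without their roles. How arrays were scaled to each other is not given in the sources used here, and depth has no meaning for arrays, whose precision is set by the number of mice.

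Probe sets with 1 gene symbol were used, and the set with the highest mean stood for its gene. Of the members, only Fga had 2 probe sets. A gene was tested if above the median of all values (5.54) on at least 4 arrays, giving 12638 genes for the 48 arrays of the age series, 11900 for the 30 of the 12-week set and 12748 for both together. limma 3.58.1 (R 4.3.3) fitted 1 mean per group and eBayes moderated the spread. Adjusted p-values are two-sided and by Benjamini-Hochberg over all genes tested, with 0.05 as threshold. The script was tested on simulated data.

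Single-mouse values were to be given for the macrophage genes and for the 4 highest and 4 lowest other members past the threshold in each contrast, and are printed for those the results turn on. Those of F11 and the fibrinogen genes at 11 weeks and of C9 under the oligos fall outside this rule and were chosen after their values were seen. Members and lists were chosen with earlier results of these data known. Promoter windows are from RefSeq.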

Additional observations from a re-analysis of the deposited data

Results flagged for a closer look

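Several single livers stood far from the rest of their group, by a gap to the nearest mouse that was large for the range of the group (Dixon's test). Of 322 checks 15 were of this kind, or 4.66%, and chance gives about 1 in 20. Among the macrophage genes these were C1qb at 8.35 in mouse 2 of the 1-week Npc1+/+ group, C1qc at 8.90 in mouse 3 of the Npc1 oligo group, and C3ar1 at 6.81 in mouse 3 of the 5-week Npc1-/- group and at 5.90 in mouse 3 of the Npc1 oligo plus NAC group. F13a1 stood at 5.68 in mouse 1 of the 9-week Npc1-/- group and at 5.45 in mouse 4 of the Npc1 oligo plus NAC group, and C5ar1 at 4.69 in mouse 3 of the 1-week Npc1-/- group. That last mouse, which carries the muscle signal, also had a low C9 of 6.80. C9 was 9.23 in mouse 1 of the 9-week Npc1+/+ group, and C8a 10.2 in mouse 1 of the 3-week Npc1-/- group. Thbd stood apart in mouse 4 of the 11-week Npc1-/- group (7.18), mouse 2 of the 11-week Npc1+/+ group (5.62) and mouse 3 of the control oligo plus NAC group (5.78). The mean of the hepatocyte members stood apart in mouse 2 of the Npc1 oligo group (10.9) and mouse 4 of the fasted group (10.7).

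The genotype difference varied between ages for 29 members (adjusted p of the moderated F test in limma). Among the complement genes of hepatocytes the adjusted p was 6.83e-06 for C4b, 0.0337 for C6, 4.16e-10 for C8a, 0.00181 for C8b, 7.35e-06 for C8g, 1.39e-06 for C9, 4.4e-06 for Hc, 0.0325 for Cfb, 5.39e-05 for Cfi, 0.0191 for Masp2, 1.58e-11 for Mbl1 and 0.000111 for Mbl2. Among the coagulation genes of hepatocytes the adjusted p was 0.00116 for F2, 0.000885 for F7, 0.00149 for F10, 4.51e-05 for F11, 0.00995 for F12, 0.000285 for F13b, 0.019 for Fga, 0.0326 for Fgb, 0.00145 for Fgg, 0.00254 for Plg, 0.0106 for Proc and 0.000131 for Proz. Among the macrophage and endothelial genes the adjusted p was 0.00169 for C1qa, 2.25e-07 for C1qb, 4.16e-08 for C1qc, 1.74e-18 for C3ar1 and 0.0399 for Thbd. 

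The knockdown effect with NAC minus that without it was -0.72 for C8a, -0.43 for F11, 0.76 for F3 and -1.18 for Thbd on the log2 scale.

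The effect of Npc1 loss at 11 weeks, less that of the oligo, passed the test for 27 members. Among the complement genes of hepatocytes it was -0.76 for C4b, -0.80 for C6, -2.67 for C8a, -0.85 for C8b, -1.16 for C8g, -3.04 for C9, -0.78 for Hc, -0.49 for Cfi, -0.46 for Masp2, -1.18 for Mbl1 and -0.83 for Mbl2. Among the coagulation genes of hepatocytes it was -0.44 for F2, -0.27 for F5, -0.53 for F7, -0.26 for F10, -0.84 for F11, -0.33 for F12, -0.56 for F13b, -0.95 for Fga, -0.30 for Fgg, -0.35 for Plg, -0.40 for Proc and -0.56 for Proz. Among the macrophage and endothelial genes it was 0.75 for C1qb, 0.71 for C1qc, 2.52 for C3ar1 and 0.30 for Vwf. Of these, Vwf had an adjusted p of 0.043, and its call was lost without any 1 of 10 of the 18 mice, with a highest adjusted p of 0.0781.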

How the results depend on the processing

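The 11-week counts and the C3ar1, C1q, C9, C8a, C8g and Mbl1 results at 11 weeks kept their direction and their call under every alternative run, while counts resting on few genes moved. NAC under the Npc1 oligo changed 1 member with no filter and 0 when only the groups compared were fitted, in place of 3. NAC under the control oligo changed 9 with an intensity trend and robust prior and 2 with no filter, in place of 5. The interaction held for 1 member when only the groups compared were fitted, in place of 4. Between 11 and 3 weeks Npc1+/+ livers differed in 3 with no filter, in place of 5. Without mice 3 and 4 of the 1-week Npc1+/+ group, 2 members differed by genotype at 1 week and 10 between 3 and 1 weeks in Npc1+/+ livers. Fasting changed 2 with the trend, after quantile normalization or with a stricter filter. With 1 mouse left out the counts ran over 0 to 2 for fasting, 2 to 6 for NAC under the control oligo, 1 to 3 for NAC under the Npc1 oligo, 2 to 6 for the interaction and 2 to 5 for Npc1+/+ at 11 against 3 weeks. Quantile normalization weakened 46 of 310 results, mostly small falls, and turned F2 averaged over ages to 0.0080 (adjusted p = 0.753), against -0.09; the cause was not tested. After it the NAC effect split into 4 higher and 1 lower under the control oligo, while centring gave 0 and 2 under the Npc1 oligo. Replicate numbers did not pair the mice (correlation of same-numbered mice -0.30 to 0.226), and the replicate block gave 18 members at 7 weeks, against 19, and 30 at 11 weeks, and weakened 6 results. The number of arrays sets the precision, and C5ar1 and F13a1 were too dim to test.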
